A study of Mus musculus with 5 samples.

Results

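Kitl is 1 of 21631 protein-coding genes on the 19 autosomes and X. It was taken by name and not by a rule on measured values, but with earlier results of these data known. The gene lies on chromosome 10 of mm10, from 100015615 to 100100416 on the plus strand, and is 84.8 kb long. The locus described here is the gene with 500 kb on either side, from 99515615 to 100600416. It held 13 regions called for H2AK119ub and 3 called for H3K27me3.

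The regions come from chromatin immunoprecipitation and sequencing of basal epidermal progenitors from the back skin of mice aged 71 postnatal days. All libraries came from mice of the genotype labelled Control that carried the K14-RFP and K10-H2B-GFP reporters, driven in keratins of basal and of suprabasal keratinocytes, and cells with surface Sca1, high RFP and no GFP were sorted. H2AK119ub and H3K27me3 had 2 libraries each and the input had 1, but only 1 list of regions per mark was used, with no height, score or replicate column. Read depth and replicate spread are therefore unknown, no test between samples was possible, and every value below is a position, a length or a count without error. A place without a region may still carry a mark below the unknown threshold of the call.

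Kitl encodes Kit ligand, also called stem cell factor, a growth factor made as a membrane protein that can be cut to a soluble form. It binds the receptor tyrosine kinase Kit, and in skin this signal is needed for melanoblasts to migrate, divide and survive. Keratinocytes and dermal cells are known sources of the ligand. H2AK119ub is the ubiquitin mark that Polycomb repressive complex 1 (PRC1) places on histone H2A, and H3K27me3 is the methyl mark that Polycomb repressive complex 2 (PRC2) places on histone H3. Both are known for gene repression, although H2AK119ub is also found at expressed genes.

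The transcription start of Kitl lies between 2 H3K27me3 regions and inside a single H2AK119ub region. The sequence before the start is shown because the edge of the upstream H3K27me3 region falls within it. RefSeq (GRCm38.p6, the assembly of mm10) places the transcription start used here at 100015821, which is 206 bp inside the first annotated base of the gene. The sequence below holds the 44 bases just before the first annotated base, chr10:100015571-100015614, plus strand, 5′ to 3′, and the 33 capitals at its left end are the bases inside the H3K27me3 region. The whole sequence lies inside the H2AK119ub region.
Kitl: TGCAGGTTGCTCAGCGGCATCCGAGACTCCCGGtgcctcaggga

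The 300-base RefSeq window around the start, whose last 50 bases begin with the start base, held 28 CpG dinucleotides. Its GC content was 68.7%, and its ratio of observed to expected CpG was 0.794. Of 14507 protein-coding genes with a single start in the table, 82.1% had fewer CpG in the same window. By the thresholds used here (GC content of 50% or more and a ratio of 0.6 or more), 45.3% of these promoters were CpG-rich, Kitl among them. H2AK119ub covered the transcription start of 39.8% of the CpG-rich promoters and 34.3% of the others, and H3K27me3 that of 18.1% and 18.9%. The shares of both classes are descriptions, and their difference was not tested.

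Letters of 3 motifs were searched on both strands, with overlapping matches counted. TATAAA, the letters of a TATA box, matched once, at bases 226 to 231 of the window, beginning 25 bp before the start, and 14.4% of promoters held it. GGGCGG, the letters bound by Sp family factors, matched 3 times, and 45.9% of promoters held it. CACGTG, an E-box, had no match, and 7.83% of promoters held it. These are matches of letters and not measured binding sites.

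The upstream H3K27me3 region, chr10:100006101-100015603, was 9.50 kb wide and ended 12 bp before the first annotated base of Kitl and 218 bp before the transcription start. The second, chr10:100016976-100019571, was 2.60 kb wide and began 1155 bp after the transcription start, inside the gene. Between them lay 1372 bp without a called H3K27me3 region, of which 217 bp preceded the start and 1154 bp followed it. The H2AK119ub region, chr10:100003512-100039205, was 35.7 kb wide and ran across all of this. It began 2.59 kb before the upstream H3K27me3 region and ended 19.6 kb after the second one, so the H2AK119ub domain reached further on both sides and mainly into the gene. H3K27me3 filled 33.9% of it, a summed 12.1 kb.

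A start that is marked nearby and yet lies outside the H3K27me3 region was uncommon. Among 3694 protein-coding genes with a known strand and an H3K27me3 region within 1 kb of the annotated start, the start itself lay in a region in 89.0%. An H3K27me3 edge lay within 1 kb of the annotated start in 4.38% of 17274 genes with a known strand, and as close as at Kitl (12 bp or less) in 10 of them, or 0.0579%. Of 14513 genes with a single transcription start in the table, 36.8% had it in H2AK119ub and 15.4% had it in both marks. The full arrangement of Kitl (a start inside H2AK119ub, in a gap of H3K27me3 with a region of that mark within 3 kb on each side, and 1 H2AK119ub region touching both) was met by 26 genes, or 0.179%. This arrangement and the limit of 12 bp were both taken from the values of Kitl, so their rarity is a description and no test. Among the 26 genes the gap ran from 1040 to 5027 bp with a median of 2165 bp, and 6 genes, Kitl included, had a gap of 1372 bp or less. Over all autosomal H3K27me3 regions, 8.15% of the 12933 gaps between neighbours were that short. The list held gaps as small as 13 bp, but how the call treated short breaks is not known. With gaps of 3 kb or less joined, the pair becomes 1 region of 13.5 kb that covers the start, and the error of each edge is unknown.

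**Figure D1:**
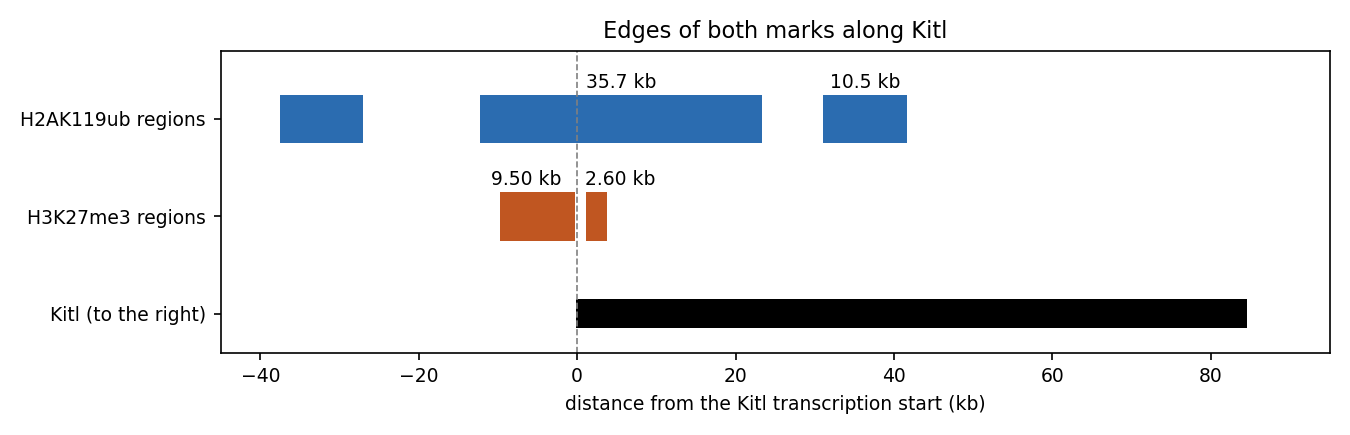
Called regions of H2AK119ub (upper track) and H3K27me3 (middle track) along Kitl (black bar, transcribed to the right), by distance from the transcription start in kb (dashed line). The start lies inside the 35.7 kb H2AK119ub region and in the gap between the H3K27me3 regions of 9.50 and 2.60 kb, and no region reaches the far end of the gene.

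Both marks sat at the 5′ end of Kitl and were absent from its 3′ end. Within 1 kb of the lower end there was an H2AK119ub and an H3K27me3 region, and within 1 kb of the upper end there was neither. Of all protein-coding genes 57.1% had H2AK119ub within 1 kb of an end, 24.7% had H3K27me3 and 21.1% had both. Both marks at the start and neither at the far end, as at Kitl, were found in 783 of the 17274 genes with a known strand, or 4.53%. Among genes with a known strand and a marked end, only the start was marked in 29.7% for H2AK119ub and in 47.0% for H3K27me3.

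Inside the gene H2AK119ub covered the first part and H3K27me3 very little. A second H2AK119ub region, chr10:100046916-100057411, was 10.5 kb wide and lay 31.1 to 41.6 kb after the transcription start, 7.71 kb beyond the first. The remaining 43.0 kb of Kitl up to its last base held no region of either mark, and the last H3K27me3 base lay 80.8 kb before that end. H2AK119ub thus covered 34.1 kb of the gene, or 40.2%, and H3K27me3 2.60 kb, or 3.06%. The median autosomal protein-coding gene was covered to 7.38% by H2AK119ub and 0% by H3K27me3. Kitl exceeded 63.7% and 79.4% of 20665 such genes. Among the 3333 that were 50 to 150 kb long, a range set around the length of Kitl, it exceeded 74.4% and 72.7%. Exon positions were not analysed here.

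Upstream of Kitl, H2AK119ub came in a near and a far group of regions. The near group held 3 regions. They were chr10:99936616-99942685 (6.07 kb), chr10:99955177-99963703 (8.53 kb) and chr10:99978284-99988837 (10.6 kb), and the last of them ended 26984 bp before the transcription start. Region width thus rose towards the start, up to the 35.7 kb region over it. The gaps between these 4 regions were 12.5, 14.6 and 14.7 kb, against a median gap of 7.67 kb between autosomal H2AK119ub regions. None of the 3 overlapped H3K27me3, and the nearest also covered part of the pseudogene Gm17870. Distal sequences upstream of Kitl are known to hold enhancers, and these lists do not show which of the regions, if any, coincide with one.

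Then followed 195 kb without any region of either mark, from 99741529 to 99936615. This stretch contained Csl, a citrate synthase-like gene, and the lncRNA genes Gm35206 and Gm35437. The far group lay below it and held 8 H2AK119ub regions with a summed length of 40.1 kb. The widest was chr10:99555384-99565089 (9.71 kb), 451 kb before the start of Kitl, and the narrowest was chr10:99740973-99741528 (0.556 kb), 274 kb before it. The others were chr10:99576835-99578788 (1.95 kb), chr10:99592114-99596595 (4.48 kb), chr10:99600112-99605783 (5.67 kb), chr10:99613035-99619794 (6.76 kb), chr10:99637410-99642860 (5.45 kb) and chr10:99672413-99677951 (5.54 kb). Only the 6.76 kb region met H3K27me3, in the remaining H3K27me3 region of the locus, chr10:99618241-99619560. That region was 1.32 kb wide, lay wholly within the H2AK119ub region, and was narrower than all but 1.69% of autosomal H3K27me3 regions. It lay inside the lncRNA gene Gm20110 and away from its ends.

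**Figure D2:**
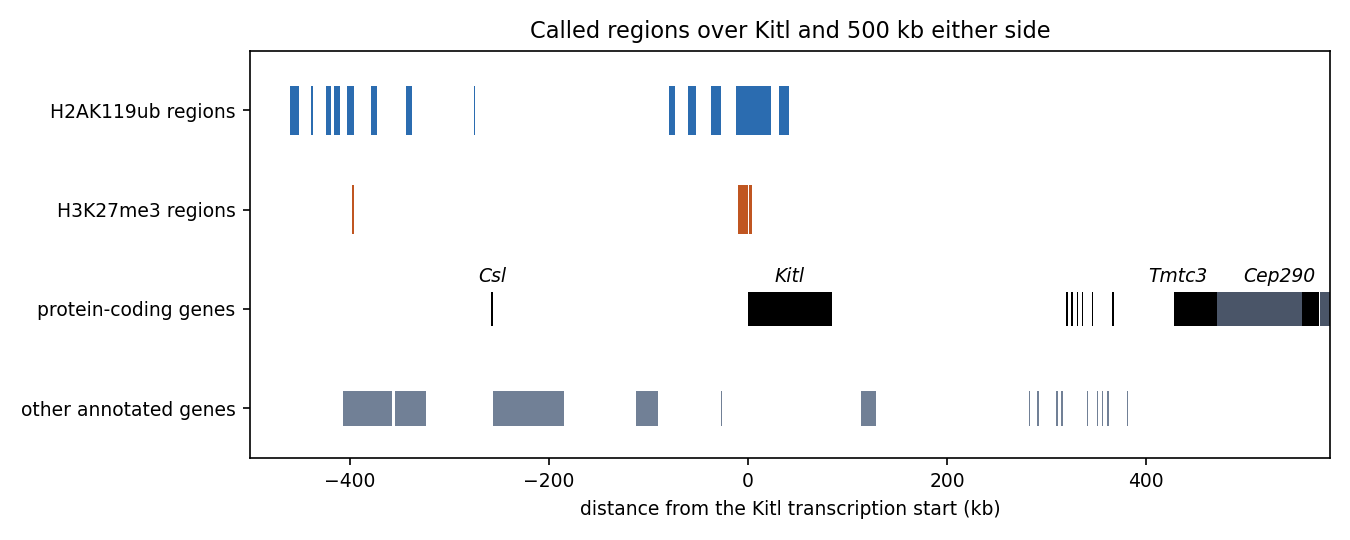
Called regions of H2AK119ub (top track) and H3K27me3 (second track) over Kitl and 500 kb on either side, with protein-coding genes (below them; shades of grey separate touching genes) and other annotated genes (bottom track), by distance from the Kitl transcription start in kb. All 13 H2AK119ub and 3 H3K27me3 regions end no further right than 41.6 kb after the transcription start. The 500 kb to the right of the gene hold none.

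Downstream of Kitl there was no region of either mark in 500 kb. Among 16325 autosomal genes with a known strand, 14.9% had no H2AK119ub and 21.4% had no H3K27me3 in the 500 kb after the gene, and the medians were 25.3% and 4.95% covered. In the 500 kb before the gene, H2AK119ub covered 15.5% at Kitl and 24.2% at the median gene, and H3K27me3 covered 2.16% and 4.90%. The locus as a whole was poorer in both marks than the typical gene's surroundings. H2AK119ub covered 111 kb (10.3%) of the window, above 28.0% of 20413 autosomal protein-coding genes, whose median was 26.7%. H3K27me3 covered 13.4 kb (1.24%), above 19.7% of these genes, whose median was 6.80%. All of the H3K27me3 length in the window lay in H2AK119ub, against 66.5% on chromosome 10 and 66.2% on the autosomes, but at Kitl this rests on 3 regions. In the other direction, 13.4 of the 111 kb of H2AK119ub lay in H3K27me3, against 23.2% of the length on the autosomes.

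**Figure D3:**
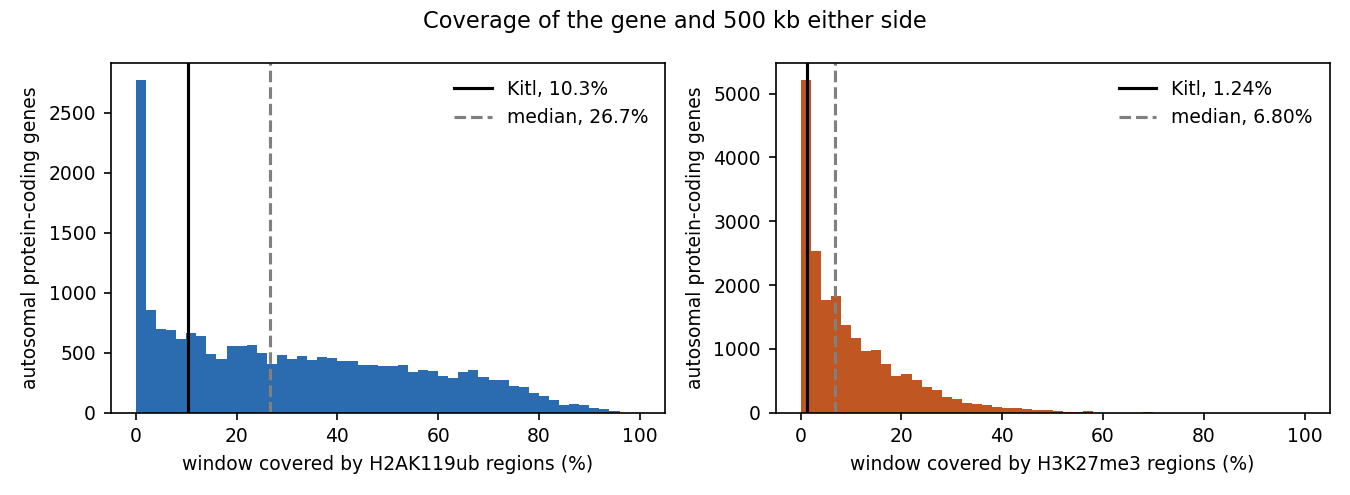
Percent of each autosomal protein-coding gene with 500 kb on either side covered by H2AK119ub (left) and H3K27me3 (right) regions, as histograms of genes. Kitl (solid line, 10.3% and 1.24%) lies below the median gene (dashed line, 26.7% and 6.80%) for both marks.

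The window held 28 annotated genes, 12 of them protein-coding, and Kitl was the only protein-coding one with a region within 1 kb of an end. Over all protein-coding genes 57.1% had H2AK119ub and 24.7% had H3K27me3 there. Such shares were not computed for lncRNA genes and pseudogenes. On the lower side Csl, 256 kb away, was unmarked, as were the lncRNA genes Gm20110, Gm35101, Gm35206 and Gm35437 at their ends. H2AK119ub alone was found at the ends of 2 pseudogenes, Gm18409 (5.45 kb region) and Gm17870 (10.6 kb region). On the upper side all 20 genes were unmarked, 10 of them protein-coding, with the lncRNA gene Gm35533 nearest, 29.5 kb from Kitl. Gm4301, Gm4302, Gm4303, Gm4305, Gm4307 and Gm4312 lie 235 to 281 kb away. The RefSeq promoter windows of Gm4303, Gm4305 and Gm4307 had identical letters, as did those of Gm4301 and Gm4312. Reads of 75 nt from such copies may not be placed uniquely, and how the authors treated them is not given in the sources used here, so the lack of regions there is uncertain.

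Tmtc3, an O-mannosyltransferase gene 343 kb away, and Cep290, a gene for a protein of the ciliary transition zone 387 kb away, are transcribed in opposite directions from first bases 183 bp apart. 4930430F08Rik and 1700017N19Rik followed, at 472 and 490.1 kb, and had no region at or within them either. The sequence before Cep290 is shown because its promoter is CpG-rich, as at Kitl, and carries neither mark. It is the whole interval between both genes, the 182 bases chr10:100487366-100487547, plus strand, 5′ to 3′, with no capitals because no base lies in H3K27me3.
Cep290: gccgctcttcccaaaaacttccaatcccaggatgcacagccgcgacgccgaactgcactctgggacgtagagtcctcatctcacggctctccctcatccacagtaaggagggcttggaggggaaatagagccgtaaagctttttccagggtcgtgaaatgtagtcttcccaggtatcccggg

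The 300-base window of Cep290 had 25 CpG, a GC content of 62.3% and an observed to expected ratio of 0.859, and that of Tmtc3 had 22 CpG, 62.3% and 0.757. These are close to the 28 CpG, 68.7% and 0.794 of Kitl. The windows of Cep290 and Tmtc3 overlap for most of their length, so they describe a shared unmarked promoter and not separate examples. Whether CpG content relates to the marks was not tested. Csl had 9 CpG and 1700017N19Rik had 0. Beyond the window on the lower side, Dusp6, a phosphatase gene that restrains ERK signalling, 748 kb from Kitl, lay wholly in a 38.8 kb H2AK119ub region without H3K27me3. Poc1b, a centriole gene 818 kb away, had H2AK119ub alone at both ends (19.7 kb). On the upper side Mgat4c, a glycosyltransferase gene 1581 kb away, and Nts, the neurotensin gene 2381 kb away, had neither mark.

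The genes most like Kitl had similar regions of both marks around the start, which follows from how they were chosen. Their H3K27me3 region was unbroken over the start, a difference from Kitl that lowers the likeness only slightly. Likeness was the share of 80 bin values (40 bins of 1 kb per mark, from 20 kb before to 20 kb after the annotated start) that equalled those of Kitl, of which 32 were covered by H2AK119ub and 13 by H3K27me3. The median over 21630 other protein-coding genes was 40 of the 80 bins. The highest values were 77 of 80 bins for Pde9a, a cyclic GMP phosphodiesterase gene, and 76 of 80 bins for Cd63, a tetraspanin gene. Ptprm, a receptor phosphatase gene, B4galnt3, a glycosyltransferase gene, and Nkain4 followed with 75 each. Pde9a and Nkain4, whose strand the promoter table does not settle, were read in the direction of greater likeness. At all 5 the start lay inside H3K27me3. The same held for 89.0% of protein-coding genes with a known strand and a region of that mark within 1 kb of the start. The H3K27me3 regions of the 5 genes were 13.2, 11.9, 12.5, 17.2 and 9.85 kb wide in that order. Their H2AK119ub regions were 53.4, 68.2, 28.5, 34.3 and 44.4 kb wide, against 35.7 kb at Kitl. The choice of genes depended on the reach, since 2 of the 5 were among the top 5 with 50 kb on each side and 0 with 10 kb.

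**Figure D4:**
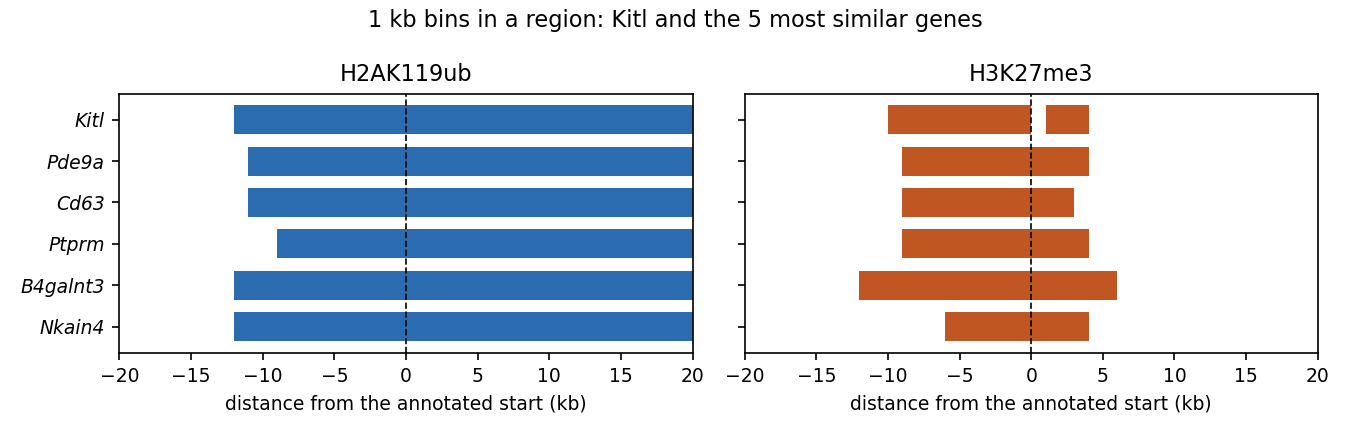
Bins of 1 kb covered by H2AK119ub (left) and H3K27me3 (right) at Kitl and the 5 protein-coding genes with the highest likeness, by distance from the annotated start in kb in the direction of transcription. Kitl alone shows a break in H3K27me3 just after the start, and its H2AK119ub bins begin 12 kb before the start and continue to the edge of the plot.

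Kit, the receptor for this ligand, carried both marks in the opposite proportion. At Kit the H3K27me3 region was 9.83 kb wide (chr5:75571104-75580929), close to the 9.50 kb at Kitl, whereas its H2AK119ub region was 1.30 kb (chr5:75574512-75575811) against 35.7 kb. The H2AK119ub region of Kit lay wholly inside its H3K27me3 region, and the start of Kit was in both. At Kitl the nesting was reversed, since both H3K27me3 regions lay wholly inside H2AK119ub. Kit, like Kitl, was unmarked at its far end.

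Among the ligands related to Kitl, H3K27me3 was found at 1. The ligands of the receptor tyrosine kinases most closely related to Kit are Csf1, Il34, Flt3l and the platelet-derived growth factors Pdgfa, Pdgfb, Pdgfc and Pdgfd. Of these 7, 6 had H2AK119ub at an end and 1, Pdgfa, had H3K27me3. Its H3K27me3 region was 11.3 kb wide and lay in a 309 kb H2AK119ub region. H2AK119ub alone was found at Pdgfb (103 kb), Csf1 (93.6 kb), Il34 (28.3 kb), Flt3l (21.1 kb) and Pdgfc (19.8 kb), and Pdgfd had neither mark. Among the 5 receptors, H3K27me3 was present at 4. Besides Kit these were Pdgfra (38.0 kb), Pdgfrb (27.3 kb) and Flt3 (21.2 kb), with H2AK119ub regions of 35.1, 44.5 and 7.11 kb, and Csf1r had H2AK119ub alone (28.4 kb). Over all protein-coding genes the shares were 57.1% for H2AK119ub and 24.7% for H3K27me3. For lists of 7 and 5 genes the counts are descriptions, and nothing particular to the ligands or receptors is read from them.

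**Figure D5:**
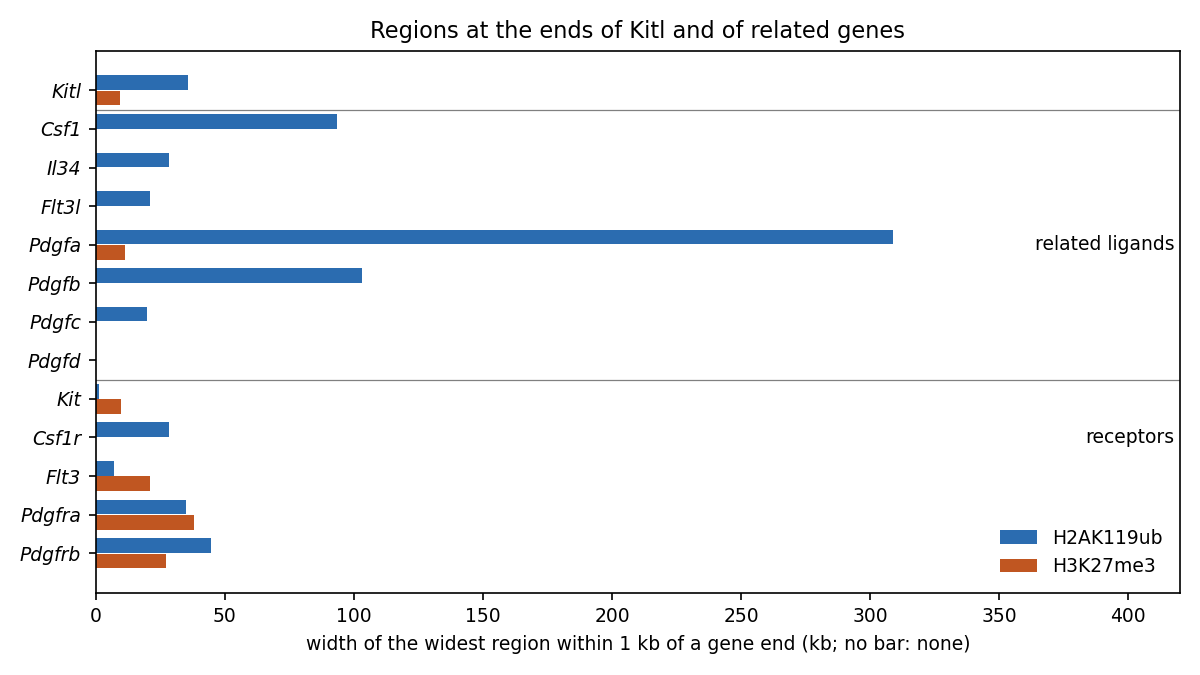
Width in kb of the widest H2AK119ub (blue) and H3K27me3 (orange) region within 1 kb of an end of Kitl, of 7 related ligands and of 5 receptors; a missing bar means no region. The bars of Kitl reach 35.7 kb (H2AK119ub) and 9.50 kb (H3K27me3), those of its receptor Kit 1.30 and 9.83 kb.

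Of 36 genes that carry or restrain the Kit signal inside the receiving cell, 28 had H2AK119ub at an end. In 25 of them it was alone and in 3 together with H3K27me3, and the remaining 8 genes had neither mark. Over all protein-coding genes 57.1% had H2AK119ub, 36.0% had it alone, 24.7% had H3K27me3 and 21.1% had both. The 3 were Fyn (13.1 kb of H3K27me3) and Lyn (10.7 kb), which are Src family kinases, and Gab2 (8.13 kb), an adaptor. Among genes without H3K27me3 at an end, the widest H2AK119ub regions were at the kinase genes Akt1 (208 kb) and Src (113 kb), at Socs1 (108 kb), a feedback inhibitor, and at the adaptor Grb7 (76.8 kb). Away from these gene ends, H3K27me3 lay in parts of the same regions, in 69.7% of that at Grb7, 8.03% at Akt1, 2.74% at Src and 1.46% at Socs1. Jak2, Map2k1 and Nras were among those with neither mark. Of 3 protease genes linked to release of Kitl from the membrane, Mmp9 had both marks, with regions of 51.2 kb for H3K27me3 and 87.7 kb for H2AK119ub, and Adam17 (9.16 kb) and the mast cell chymase gene Cma1 (31.8 kb) had H2AK119ub alone. Of 3 transcription factor genes linked to Kitl expression, Egr2 had both marks (8.14 kb of H3K27me3, all of it in H2AK119ub), Hif1a had H2AK119ub alone (11.3 kb) and Trp53 had neither.

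Among 10 other skin growth factor genes that act on melanocytes, 4 had both marks, as Kitl did, against 21.1% of all protein-coding genes. In a list of this size the count is a description. The H3K27me3 region of Fgf2 was 14.3 kb wide and filled 89.1% of its H2AK119ub region. The H3K27me3 and H2AK119ub regions were 14.2 and 14.1 kb at Igf1, and 1.86 and 31.4 kb at Bmp4. Kitl, with 9.50 and 35.7 kb, was thus more like Bmp4 than like Fgf2 or Igf1 in having the far wider H2AK119ub region. Csf2 (77.0 kb) and Edn1 (22.5 kb) had H2AK119ub alone, Fgf7 (8.22 kb) and Edn3 (2.76 kb) had H3K27me3 alone, and Hgf and Nrg1 had neither. Over the 64 genes of the 6 lists, 11 had a known strand and H3K27me3 within 1 kb of the start. The start lay inside the region in 10 of these, close to the 89.0% found over all such protein-coding genes. It lay outside the region at Bmp4, as at Kitl.

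Regions of histone marks cannot show which cells were in the sort, and expression was not analysed here. At the basal keratinocyte markers Krt5, Krt14, Itga6 and Itgb4 there was H2AK119ub alone and at Trp63 neither mark, so H3K27me3 was found at 0 of 5. It was found at 2 of 4 suprabasal, 0 of 5 melanocyte, 4 of 5 dermal fibroblast and 5 of 5 Merkel cell markers, against 24.7% of all protein-coding genes. With 4 or 5 genes in a list these counts are descriptions. Pdgfra counts among both the receptors and the fibroblast markers. H2AK119ub was found at 4 of 5 basal, 4 of 4 suprabasal and 1 of 5 melanocyte markers (Dct). It was also found at 3 of 5 dermal fibroblast and 5 of 5 Merkel cell markers. Over all protein-coding genes the share with H2AK119ub was 57.1%. The part that other cells in the sort may have in the regions at Kitl was not tested.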

How the data were processed

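The authors deposited a region list for each mark, in which every row gives a chromosome and the first and last position and nothing else, per the file headers. The submitters' processing notes name Bowtie2 2.3.3.1, SAMtools 1.9 and mm10, but not how each was used. How regions were called, at what threshold, with or without input, and whether libraries were pooled is not given in the sources used here. Each library used 5 ng of DNA and single reads of 75 nt, per the labels' protocols.

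Region starts were taken as 0-based and shifted by 1. Genes came from the RefSeq table of GRCm38.p6, and strand, transcription start and promoter sequence from its promoter table, which gave 17274 of 21631 protein-coding genes 1 strand and 14513 of them 1 start. A gene was marked when a region lay within 1 kb of an annotated end. Percentages over genes are descriptions. Windows that ran past the outermost gene or region of a chromosome were left out. Interval counting in Python 3.11.15 with NumPy 2.4.6 was tested on simulated data.

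The gene, the lists and the comparisons were chosen with earlier results of these data known. Named genes were those in the window, the nearest 2 protein-coding genes beyond each side, the 5 most like Kitl, and from lists of over 10 genes up to 4 per class with the widest region (for genes with neither mark, by symbol). Some members of the lists are counted and not reported here by name.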

Additional observations from a re-analysis of the deposited data

How the results depend on the processing

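Values for Kitl were recomputed with other windows, without regions under 2 kb, with gaps of 3 kb or less joined, with other distances to a gene end and with starts counted from 1. With 250 kb or 1000 kb on either side the window was covered to 12.2% and 15.6% by H2AK119ub and to 2.07% and 2.46% by H3K27me3, and with 1000 kb the share of H3K27me3 length in H2AK119ub was 90.8%. Without regions under 2 kb the 500 kb window was covered to 10% and 1.12%. Joining gaps gave an H3K27me3 region of 13.5 kb at the start, 4.67% of the gene and 1.36% of the window, and the nearest edge then lay at 3956 bp, inside the gene. That edge lay at -218 bp from the promoter table's start. With a distance of 0 bp, H3K27me3 was at 0 ends and its region at the start had a width of 0 kb. The width of the H2AK119ub region at the start and the share of the gene covered by all H2AK119ub regions kept their values wherever they were recomputed. Of the 5 genes most like Kitl, 0 were chosen again with a reach of 10 kb and 2 with 50 kb. With H3K27me3 required within 2 or 5 kb on each side, an alternative chosen after the data had been seen, 20 and 36 genes had a start arranged as at Kitl.

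No paired analysis was possible because each mark has a single list with no replicate column. A higher score threshold could not be tried, since the lists hold no score. Depth per library is unknown.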

Other observations

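The unmarked stretch that begins inside Kitl continued far beyond the window. After the second H2AK119ub region of Kitl, the next one on chromosome 10 began at 103016766, which left 2959 kb without H2AK119ub. Of 30070 gaps between neighbouring autosomal H2AK119ub regions, 86 (0.286%) were this long or longer. For H3K27me3 the empty stretch was 2994 kb, and 91 of 12933 gaps (0.704%) were this long or longer. The stretch without H2AK119ub held 13 protein-coding genes as a whole, 10 of them with a start or end in the window described above. Both stretches ended close together, at 22.3 kb of H2AK119ub and 29.8 kb of H3K27me3 (chr10:103013662-103043419) over part of Alx1, a homeobox gene of craniofacial development. Whether reads can be placed uniquely along the stretch was not tested.

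The other genes whose start lay in H2AK119ub and in a short gap of H3K27me3 numbered 25. Those named here were picked after their values had been seen. Phc1 (gap of 2695 bp) and Cbx8 (2598 bp) encode PRC1 subunits. The share of PRC1 genes among all genes was not computed, so nothing particular to them is read from this. E2f7, a cell cycle repressor on the same chromosome as Kitl, had a gap of 1371 bp, nearly that of Kitl. Alcam, a cell adhesion gene, had 2303 bp, and Krt25, a hair follicle keratin gene, had 3695 bp.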
